A study of Rattus norvegicus with 30 samples.

Results

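Vimentin, several S100 proteins, annexin A2, muscle-type actins and tropomyosin are genes that cultured hepatocytes are known to switch on as they lose their liver character. The 10 genes described here are Vim, S100a4, S100a6, S100a10, S100a11, Anxa2, Acta1, Acta2, Actb and Tpm1. They were chosen from the treated-minus-vehicle differences of these same arrays, because Vim and S100a6 were much lower in hepatocytes given WY-14643. Those differences are therefore descriptions and carry no test. Each gene was followed through the probe sets that carry its symbol alone in the platform annotation. That rule found 16 of 31099 probe sets, for 9 of the 10 genes, and 14 of the 16 passed the filter on low signal. Actb had no such probe set, since its 2 probe sets are shared with other actins, and it was followed through the array's β-actin controls. Tpm1 had 7 probe sets, of which 5 passed the filter, Anxa2 had 2 and the other genes had 1 each.

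The cells were bought as frozen stocks of primary hepatocytes from male Sprague Dawley rats, plated on collagen and covered with Matrigel. WY-14643 or vehicle was added on day 3. WY-14643, also called pirinixic acid, activates the nuclear receptor PPARα, which turns on fatty acid oxidation and makes peroxisomes multiply in rodent liver. The groups were vehicle (labelled 1% DMSO), 8 µM and 200 µM WY-14643, each harvested at 24 h and at 48 h, with n = 5 wells per group and 30 arrays in all. The labels call the wells separate biological replicates but name no donor animals, so the errors and p-values here measure the spread between wells. The dosing stocks were made in 1% DMSO, and how much DMSO the treated medium held is not certain from the labels. All groups share the same unmodified cells, culture and overlay. Cells harvested before dosing were not analysed here.

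Vimentin forms the intermediate filaments of mesenchymal cells and is nearly absent from hepatocytes in healthy liver. S100 proteins are small calcium-binding proteins, and S100A10 is known as the partner of annexin A2, a calcium-dependent membrane-binding protein that links membranes to the actin cortex. Alpha actins and tropomyosin build contractile filaments, and their genes are textbook targets of the serum response factor SRF, which binds a sequence called the CArG box. In liver, smooth muscle actin (Acta2) is also the standard marker of activated stellate cells. In bulk RNA, fewer cells of a type and less RNA per cell cannot be told apart.

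The promoters of Vim, S100a6, Acta1 and Acta2 are shown because these 4 members had the largest treated-to-vehicle differences at 24 h. RefSeq (build GRCr8) gave a promoter for 8 of the 10 genes. Each sequence is the 250 bases before the annotated start, 5′ to 3′ on the gene's own strand. Capitals mark TATAAA and CArG boxes, including boxes with 1 G or C in the A/T core. The Vim window is chr17:81577011-81577260 (plus strand), that of S100a6 is chr2:178398287-178398536 (plus), that of Acta1 is chr19:68784195-68784444 (minus) and that of Acta2 is chr1:241172504-241172753 (minus).
Vim: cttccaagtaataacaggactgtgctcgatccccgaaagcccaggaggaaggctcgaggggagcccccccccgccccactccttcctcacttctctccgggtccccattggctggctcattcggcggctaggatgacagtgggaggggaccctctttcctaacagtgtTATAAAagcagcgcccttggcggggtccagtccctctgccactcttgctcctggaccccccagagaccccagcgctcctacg
S100a6: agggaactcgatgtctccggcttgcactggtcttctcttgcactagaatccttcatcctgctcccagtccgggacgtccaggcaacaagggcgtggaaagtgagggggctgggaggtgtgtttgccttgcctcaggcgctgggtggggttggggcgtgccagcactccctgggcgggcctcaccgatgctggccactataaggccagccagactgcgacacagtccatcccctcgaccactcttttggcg
Acta1: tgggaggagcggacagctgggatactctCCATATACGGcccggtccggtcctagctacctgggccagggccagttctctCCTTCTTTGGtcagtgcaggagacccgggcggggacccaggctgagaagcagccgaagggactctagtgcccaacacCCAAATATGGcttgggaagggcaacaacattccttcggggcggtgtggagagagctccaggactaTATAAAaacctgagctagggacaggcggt
Acta2: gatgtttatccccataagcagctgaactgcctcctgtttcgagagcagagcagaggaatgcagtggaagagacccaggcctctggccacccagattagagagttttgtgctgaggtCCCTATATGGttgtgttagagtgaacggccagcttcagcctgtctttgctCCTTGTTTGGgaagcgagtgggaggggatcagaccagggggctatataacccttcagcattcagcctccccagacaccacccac

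Motifs were searched on both strands in windows that run 250 bases before to 50 bases after each start. A CArG box with an intact A/T core was found in 1 of the 8 windows, that of Acta1 (CCAAATATGG), and in 1.64% of all 33469 rat windows. With 1 G or C allowed in the core, Acta1 and Acta2 each held such boxes, against 9.42% of all windows, and every intact box is counted there too. The Acta2 matches were CCCTATATGG and CCTTGTTTGG. TATAAA stood in 4 of the 8 windows (Vim, S100a4, Anxa2 and Acta1) and in 14.2% of all windows. The AP-1 motif TGANTCA was present in the Anxa2 window alone and in 7.33% of all. The form of the PPAR response element known as DR1, AGGTCA repeated in the same direction with 1 base between the copies, was in none of the 8 and in 0.0538% of all windows. A match describes these letters and not a bound site, and no match says only that the letters are not in this window.

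The arrays differ little in scale, with 1 exception that touches several results. The median signal was 385 to 439 on 29 arrays and 765 on the array of 48 h vehicle replicate 4, whose median correlation across probe sets with its own group was 0.867, against 0.963 to 0.971 on the others. That array is kept in the values given here, and values without it are given beside many of the results it moves. Counts of cell type markers are given only with it. A difference is the difference of group means of log2(signal + 16), tested with limma over all 21285 probe sets past the filter, with a Benjamini-Hochberg adjusted p under 0.05 as the threshold. The signal is the linear MAS5 value of a probe set, and signals of different probe sets are not set against each other.

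Vim signals formed separate treated and vehicle ranges at both times. Vehicle wells at 24 h had Vim signals of 10311, 11404, 10581, 13075 and 10597. At 8 µM the wells had 2752, 2290.1, 2959.9, 2371 and 2649, and wells at 200 µM had 2775, 2734, 2735, 2959 and 2939.5. The highest treated well reached 2959.9 and the lowest vehicle well 10311, and the 2 doses overlapped. The log2 difference of Vim from vehicle was -1.97 ± 0.14 (SE, n = 5 each) at 200 µM and -2.10 ± 0.14 at 8 µM, or 25.5% and 23.4% of the vehicle level.

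The same gap stood at 48 h. Vehicle wells then had Vim signals of 14542, 14238, 14173, 8908.5 and 14656, where 8908.5 belongs to the array that stands apart. Wells at 8 µM had 4166, 3572, 3863.5, 3955 and 2142, and wells at 200 µM had 3519.9, 3336, 3309, 4004.5 and 2475. The log2 difference from vehicle was -1.99 ± 0.14 at 200 µM and -1.92 ± 0.14 at 8 µM, and -2.12 and -2.06 without that array. Vim is thus the member with the largest difference at 24 h, and its size at 48 h was close to that at 24 h. Whether the difference from vehicle depended on time was not tested, since it is built from the contrasts that chose the genes.

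**Figure D1:**
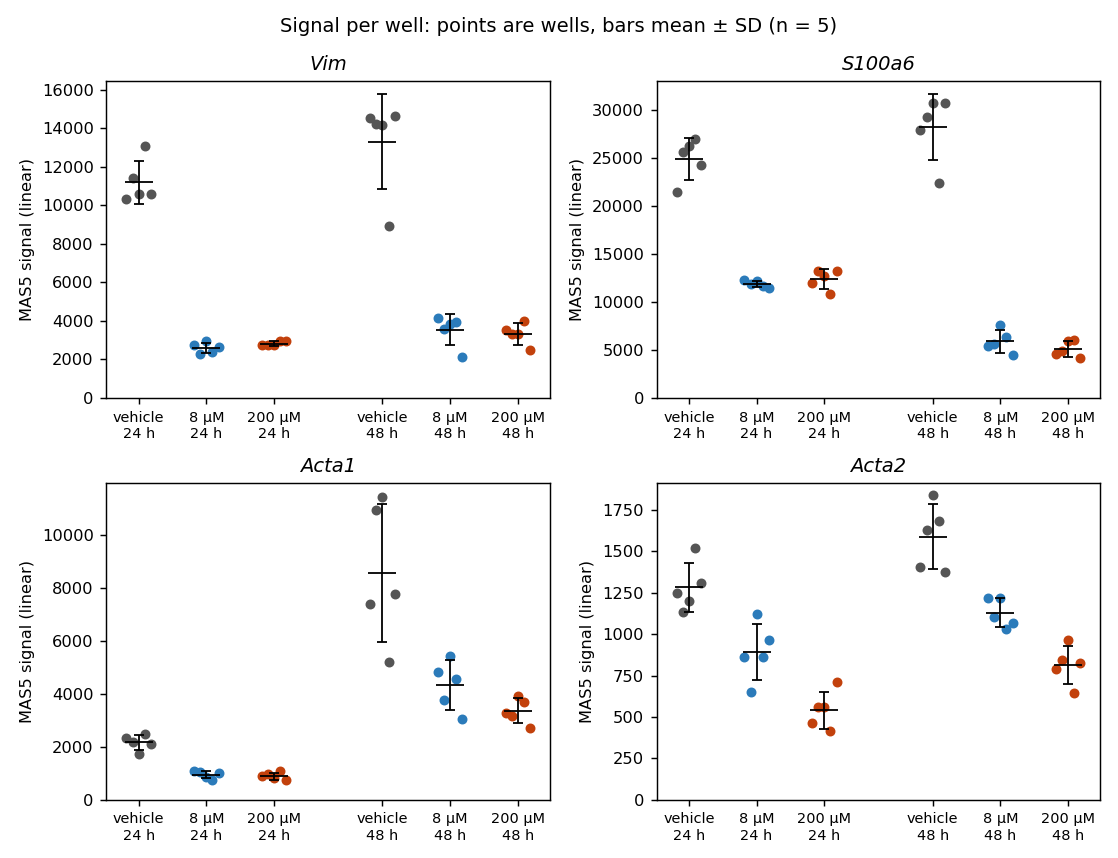
Linear MAS5 signal of Vim, S100a6, Acta1 and Acta2 in each of 30 wells (y axis) for vehicle, 8 µM and 200 µM at 24 h and 48 h (x axis); points are wells and bars are mean ± SD (n = 5). Vim means were 11194, 2605 and 2829 in that dose order at 24 h, S100a6 was lowest in treated wells at 48 h, Acta1 was higher at 48 h in every treatment, and Acta2 stepped down with dose.

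S100a6 encodes calcyclin, a calcium sensor expressed by proliferating and mesenchymal cells. Vehicle wells at 24 h had S100a6 signals of 21472, 25605, 26208.5, 26945 and 24212. At 8 µM the wells had 12282, 11869, 12168, 11625 and 11472, and wells at 200 µM had 11975, 13191, 12727, 10819 and 13191. Every treated well lay below every vehicle well, at roughly equal levels for both doses. The log2 difference from vehicle was -1.01 ± 0.11 at 200 µM and -1.06 ± 0.11 at 8 µM.

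At 48 h the S100a6 gap was wider. Vehicle wells had 27898, 29212, 30718.5, 22365 and 30652. Wells at 8 µM had 5425, 5577, 7595, 6374 and 4499, and wells at 200 µM had 4596, 4946, 5893, 6081 and 4168. The highest treated well reached 7595 and the lowest vehicle well 22365. The log2 difference was -2.46 ± 0.11 at 200 µM and -2.27 ± 0.11 at 8 µM, or 18.2% and 20.8% of the vehicle level. S100a6 had the largest difference of the members at 48 h.

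The remaining S100 genes among the members differed from each other. S100a4, also known as fibroblast-specific protein, was a low signal: it passed the filter level in 23 of 30 arrays. Its wells ranged over 102.7 to 366 at 200 µM, 208 to 401 at 8 µM and 330.1 to 907 in vehicle at 48 h, so treated and vehicle ranges overlapped. The log2 difference at 48 h was -1.16 ± 0.31 at 200 µM and -0.85 ± 0.31 at 8 µM, and -0.98 and -0.67 without the array that stands apart. At 24 h it was -0.51 ± 0.31 and -0.21 ± 0.31.

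S100a10, the annexin A2 partner, had a small difference of one direction. At 24 h its signals ranged over 32689 to 37376 at 200 µM and 31633 to 40310.5 at 8 µM, against 38483 to 46007 in vehicle, and only the 200 µM range was clear of vehicle. The log2 difference was -0.26 ± 0.08 and -0.22 ± 0.08 at 24 h, and -0.32 ± 0.08 and -0.25 ± 0.08 at 48 h, with 200 µM given before 8 µM each time. Without the array that stands apart the 48 h differences were -0.42 and -0.34. The 48 h treated wells reached 38980 and overlapped vehicle only through that array, since the other vehicle wells began at 43380. S100a11, another calcium-binding S100 protein, overlapped vehicle at 24 h. Its mean was 36005 at 200 µM and 35858 at 8 µM, against 35079 in vehicle at 24 h, with log2 differences of 0.04 ± 0.09 and 0.03 ± 0.09. At 48 h its log2 difference was -0.11 ± 0.09 at 200 µM and -0.10 ± 0.09 at 8 µM, and -0.23 and -0.21 without the array that stands apart. Its 48 h wells had 43785 to 54484 at 200 µM and 46376 to 54363 at 8 µM, against 56319 to 60405 in the other 4 vehicle wells and 38764 on that array, so the ranges overlapped only through it. RefSeq annotates 5 pseudogenes of S100a11, 3 of Acta1, 10 of Actb and 1 each of S100a10, Anxa2 and Tpm1, and whether the probes read them was not tested.

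Anxa2 was lower in treated wells, by less than Vim or S100a6. Its leading probe set had 33676 to 38533 at 200 µM and 38767 to 43331 at 8 µM, against 46495 to 54598 in vehicle at 24 h, 3 ranges that did not overlap. The log2 difference from vehicle was -0.49 ± 0.09 and -0.32 ± 0.09 at 24 h, and -0.42 ± 0.09 and -0.24 ± 0.09 at 48 h, again 200 µM before 8 µM. Without the array that stands apart the 48 h differences were -0.53 and -0.35. Treated and vehicle wells overlapped at 48 h only through that array. The second Anxa2 probe set was dim, with group means from 201 to 427, and passed the filter in 11 arrays. Its 48 h log2 differences were -0.88 ± 0.29 and -0.81 ± 0.29, and -0.65 and -0.58 without the array that stands apart.

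**Figure D2:**
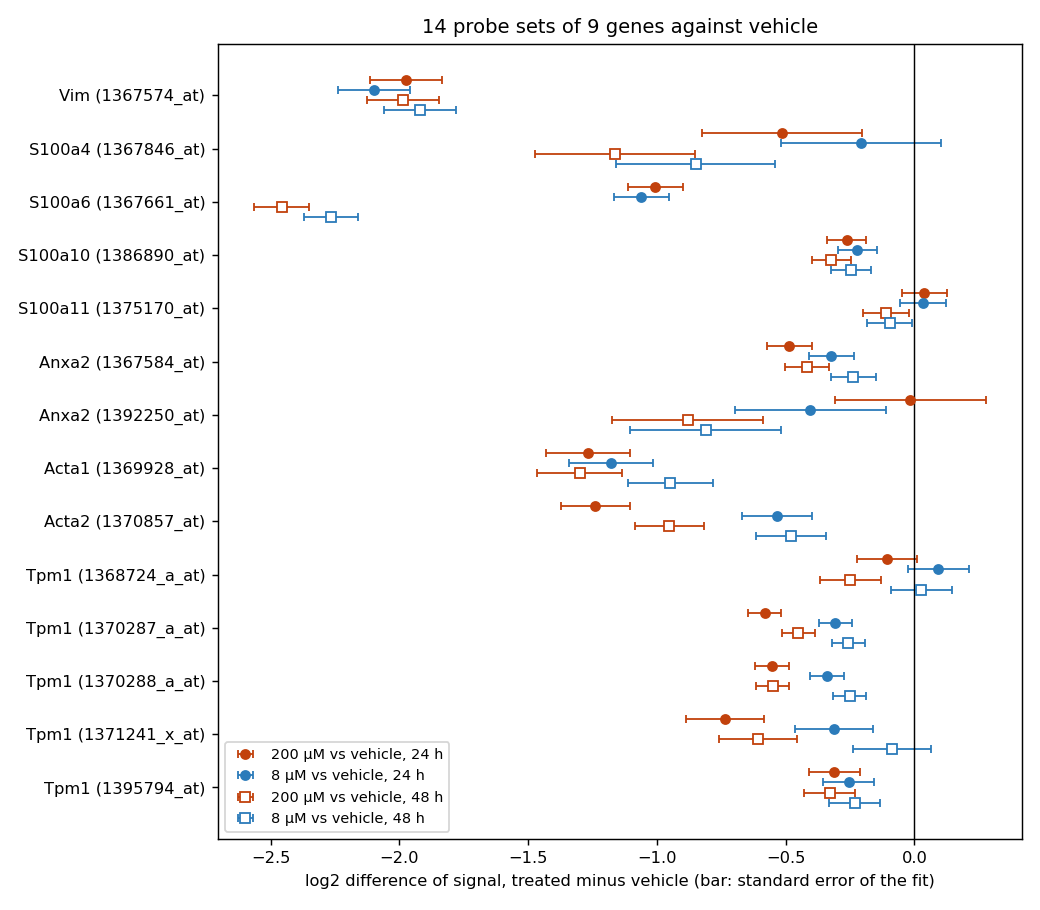
Log2 difference of signal, treated minus vehicle (x axis), for the 14 probe sets past the filter (rows) at 200 µM and 8 µM and at 24 h (filled) and 48 h (open); bars are the standard error of the fit. Vim lies near -2 in all 4 contrasts, S100a6 moves away from vehicle between 24 h and 48 h, and S100a11 lies between -0.11 and 0.04.

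Acta1 encodes skeletal muscle alpha actin, a gene that adult hepatocytes do not normally use. At 24 h vehicle wells had 2331, 2186, 1741, 2493 and 2092. At 8 µM the wells had 1078, 1045, 876, 739 and 1018.5, and wells at 200 µM had 896, 967, 801.5, 1069 and 733. The highest treated well reached 1078 and the lowest vehicle well 1741. The log2 difference was -1.27 ± 0.16 at 200 µM and -1.18 ± 0.16 at 8 µM.

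Acta1 signals were higher at 48 h in every group. Vehicle wells had 7390.2, 10918, 11427, 5196.5 and 7764, with 5196.5 from the array that stands apart. Wells at 8 µM had 4827, 3769.6, 5426, 4572 and 3061, and wells at 200 µM had 3255, 3163, 3925, 3693 and 2714.5. The 200 µM wells lay below all vehicle wells, and the 8 µM wells overlapped vehicle only through the array that stands apart. The log2 difference was -1.30 ± 0.16 at 200 µM and -0.95 ± 0.16 at 8 µM, and -1.46 and -1.11 without it.

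Acta2 stepped down with dose. At 24 h vehicle wells had 1247, 1136, 1201, 1522 and 1308. At 8 µM the wells had 864, 650.4, 1119, 859 and 962, and wells at 200 µM had 464, 558, 559, 413 and 708. The 8 µM wells lay between the others, touching the 200 µM range at 1 well. The log2 difference from vehicle was -1.24 ± 0.14 at 200 µM and -0.53 ± 0.14 at 8 µM. At 48 h vehicle wells had 1406, 1626, 1843, 1683 and 1374.5. Wells at 8 µM then had 1219, 1105, 1220.0, 1031 and 1066, and wells at 200 µM had 790.4, 845, 966, 645 and 826, so the 3 groups did not overlap. The log2 difference was then -0.95 ± 0.14 at 200 µM and -0.48 ± 0.14 at 8 µM. The probe set with this symbol alone was used, and 5 more that carry Acta2 beside another symbol were not.

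Tropomyosin 1 (Tpm1), which winds along actin filaments, was read by 5 probe sets. The brightest had 20710, 20913, 20937, 22004 and 20166 in vehicle at 24 h. It had 16837, 17685, 16958, 16626 and 16483.5 at 8 µM and 14088, 14294, 13562, 13543 and 14493 at 200 µM. All 3 ranges stood apart. The log2 difference from vehicle was -0.58 ± 0.06 at 200 µM and -0.31 ± 0.06 at 8 µM, and -0.45 ± 0.06 and -0.26 ± 0.06 at 48 h. Without the array that stands apart the 48 h differences were -0.53 and -0.33. The 5 probe sets disagreed in size. At 200 µM and 24 h the differences of the other 4 were -0.55 ± 0.07, -0.11 ± 0.12, -0.31 ± 0.10 and -0.74 ± 0.15, listed from the second brightest to the dimmest. The third brightest, with -0.11, had 0.09 ± 0.12 at 8 µM at 24 h and 0.03 ± 0.12 at 48 h. The 2 Tpm1 probe sets below the filter had group means of 22.6 to 115 and 33.8 to 58.7.

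Counted over the 14 probe sets, 10 were lower past the threshold at 200 µM and 8 at 8 µM at 24 h, and 12 and 10 at 48 h, with none higher. Without the array that stands apart the 48 h counts were 12 and 9. Across all probe sets 10.1% were lower and 8.70% higher at 200 µM at 24 h, and 10.5% and 8.72% at 8 µM. At 48 h these shares were 13.8% and 12.6% at 200 µM and 15.7% and 12.8% at 8 µM. The median difference of the 14 was -0.53, -0.32, -0.58 and -0.25 (200 µM and 8 µM at 24 h, then at 48 h), beside -0.02, -0.03, -0.07 and -0.10 over all probe sets. These contrasts chose the genes, so nothing is read from the counts. Both doses share their vehicle wells.

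The β-actin controls of the array read the Actb transcript at its 5′ end, middle and 3′ end. At 24 h the 5′ control averaged 11978 ± 1280 (SD, n = 5) at 200 µM and 14878 ± 2151 at 8 µM, against 19022 ± 1621 in vehicle. Wells at 200 µM lay below vehicle wells without overlap, and those at 8 µM overlapped. The log2 difference at 200 µM was -0.67 at the 5′ control, -0.56 in the middle and -0.45 at the 3′ control at 24 h, and -0.49, -0.45 and -0.24 at 48 h. At 8 µM it was -0.36, -0.34 and -0.24 at 24 h and -0.39, -0.30 and -0.07 at 48 h. Without the array that stands apart, all treated wells at 48 h lay below vehicle wells at all 3 positions.

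The ratio of the 3′ to the 5′ control, a standard gauge of RNA integrity and labelling, averaged 3.31 ± 0.17 (SD) at 200 µM and 3.10 ± 0.21 at 8 µM against 2.86 ± 0.28 in vehicle at 24 h, and 3.10 ± 0.20 and 3.26 ± 0.42 against 2.61 ± 0.31 at 48 h. Over 252 splits, two-sided exact permutation tests gave an adjusted p of 0.0423 at 200 µM and 0.182 at 8 µM at 24 h, and 0.0423 for each dose at 48 h (adjusted over 4 tests, n = 5 each). At 48 h the 200 µM result reached an exact p of 0.0635 when any of 6 wells was left out, the well of the array that stands apart among them. These tests treat wells as unpaired, although the 5′ control rose with replicate number in vehicle and 8 µM wells at 24 h. A paired comparison was not run. The part of RNA quality in the actin differences was not tested.

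**Figure D3:**
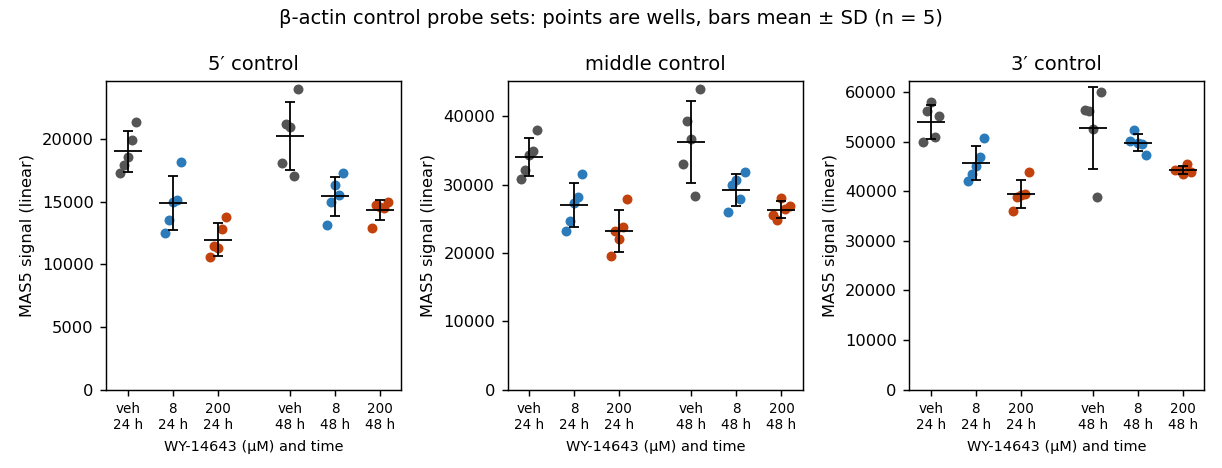
Linear MAS5 signal (y axis) of the 5′, middle and 3′ β-actin control probe sets in each well by dose and time (x axis); points are wells and bars are mean ± SD (n = 5). Treated means lie below vehicle means in all 3 panels. On the log2 scale, which is not drawn here, the difference is larger at the 5′ control than at the 3′ control.

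Whether the high dose differed from the low dose was tested within each time, a contrast the choice of genes did not use, although it shares the treated wells with those that did. At 24 h 2 of the 14 probe sets fell at 200 µM against 8 µM and none rose, beside 1.09% lower and 0.883% higher over all probe sets. At 48 h 2 fell and none rose, beside 1.63% and 1.38%. Without the array that stands apart 3 fell at 24 h and 4 at 48 h, and no shares over all probe sets were computed for that fit. Acta2 fell at 24 h by 0.71 ± 0.14 on the log2 scale (limma adjusted p = 0.00184), with 540.4 ± 113 at 200 µM and 891 ± 171 at 8 µM (SD, n = 5). Its call held in all 41 alternatives. At 48 h it fell by 0.47 ± 0.14 (limma adjusted p = 0.0499), with every 200 µM well below every 8 µM well, but this call is borderline and was kept in 13 of 41 alternatives, over which the adjusted p ran from 0.0191 to 0.181.

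Tpm1 also stood lower at the high dose. Its brightest probe set fell by 0.27 ± 0.06 at 24 h (limma adjusted p = 0.0135), with no overlap of wells. At 48 h its difference was -0.19 ± 0.06 (limma adjusted p = 0.104, and 0.00733 without the array that stands apart). The second brightest Tpm1 probe set fell by 0.30 ± 0.07 at 48 h (limma adjusted p = 0.00617), while its 24 h difference was -0.21 ± 0.07 (adjusted p = 0.095, and 0.0219 without that array). Both Tpm1 calls were lost under median centring of the arrays, where the adjusted p was 0.526 at 24 h and 0.297 at 48 h. The differences themselves moved little, from -0.2862 to -0.2573 at 24 h and from -0.3285 to -0.2652 at 48 h over all alternatives.

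For Vim, S100a6 and the other members tested no dose difference passed the threshold. Actb was not tested for dose. The 200 µM minus 8 µM difference of Vim was 0.12 (95% interval -0.16 to 0.41, limma adjusted p = 0.895) at 24 h and -0.07 (-0.35 to 0.22, 0.95) at 48 h. For S100a6 it was 0.06 (-0.16 to 0.27, 0.964) at 24 h and -0.19 (-0.41 to 0.03, 0.518) at 48 h. Acta1 had -0.09 (-0.42 to 0.25, 0.961) and -0.35 (-0.69 to -0.02, 0.372). These are intervals of single genes, not adjusted for the number of genes. Those of Vim and S100a6 include differences of either sign, so equal action of both doses is not shown.

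Some markers of other cells differed between the doses. The summed signal of 8 endothelial markers of 12 lay between 4070 and 5020.0 at 200 µM and 5147 and 5836 at 8 µM at 24 h, and between 2753 and 3579.7 and between 4123 and 4921 at 48 h, with no overlap. Of the 8, 1 fell and none rose at each time. It was Fcgr2b, a receptor of liver sinusoidal endothelium, named here after its values were seen and the brightest of the 8, which fell at 200 µM against 8 µM by 0.53 at 24 h and by 0.95 at 48 h (limma adjusted p = 0.00515 and 5.74e-07). The other 7 did not pass and ran both ways, with log2 differences from -0.26 (Tek) to 0.05 (Tie1) at 24 h and from -0.66 (Pecam1) to 0.57 (Stab2) at 48 h. Of 9 stellate markers none passed at either time. Beside the counts of each cell type, 1.09% of all probe sets fell at 24 h and 1.63% at 48 h. Of 11 macrophage markers none passed at 24 h, and 3 fell at 48 h (Cd68, C1qa and C1qb, also named after their values were seen). The part of these cells in the Acta2 and Tpm1 differences was not tested.

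The second tested contrast set 48 h against 24 h within each treatment, which shows how the culture moved over a day. Over all probe sets 3.17% rose and 3.42% fell in vehicle wells, 5.20% and 4.25% at 8 µM, and 4.73% and 3.43% at 200 µM. Of the 14 member probe sets 4 rose and none fell in vehicle, 5 rose and 1 fell at 8 µM, and 5 rose and 1 fell at 200 µM. Acta1 rose in every treatment, by 1.92 ± 0.16 in vehicle, 2.15 ± 0.16 at 8 µM and 1.89 ± 0.16 at 200 µM (limma adjusted p = 3.48e-10, 1.05e-11 and 2.78e-10). These are 3.79-fold, 4.45-fold and 3.70-fold, with no overlap of 48 h and 24 h wells in any treatment.

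S100a6 moved the other way in treated wells. It fell with log2 differences of -1.03 ± 0.11 at 8 µM and of -1.28 ± 0.11 at 200 µM between 24 h and 48 h (limma adjusted p = 1.03e-08 and 1.05e-10). In vehicle its difference was 0.17 ± 0.11 (adjusted p = 0.39). The treated falls held in all 41 alternatives. S100a6 was the single tested member called lower over time. Its treated wells at 48 h are among those that led to its choice. The p-values of its treated falls therefore reuse choosing values and give no independent support.

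S100a11 rose with time by 0.62 ± 0.09 in vehicle, 0.49 ± 0.09 at 8 µM and 0.47 ± 0.09 at 200 µM (limma adjusted p = 1.14e-05, 0.000175 and 0.000369). Median centring took these adjusted p-values to 0.0506, 0.0546 and 0.0866. The brightest Tpm1 probe set rose by 0.23 ± 0.06, 0.28 ± 0.06 and 0.36 ± 0.06 in the same order (adjusted p = 0.0199, 0.00238 and 0.000145). Median centring ended those calls as well, with adjusted p = 0.631, 0.218 and 0.107, and the vehicle call was kept in 36 of 41 alternatives. Acta2 rose at 200 µM by 0.59 ± 0.14 (adjusted p = 0.00358), and its differences of 0.30 ± 0.14 in vehicle and 0.35 ± 0.14 at 8 µM had adjusted p = 0.206 and 0.108.

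Vim did not pass in any treatment, with 0.23 ± 0.14 in vehicle, 0.41 ± 0.14 at 8 µM and 0.22 ± 0.14 at 200 µM (limma adjusted p = 0.382, 0.0606 and 0.449). Without the array that stands apart the 8 µM value had an adjusted p of 0.021. S100a10 and the leading Anxa2 probe set had differences between -0.03 and 0.08 in the 3 treatments. Without the array that stands apart their vehicle differences were 0.13 and 0.10 (limma adjusted p = 0.215 and 0.413). Set against the name dedifferentiation genes, Acta1, S100a11 and Tpm1 rose over the day in vehicle culture, while Vim, S100a4, S100a6, S100a10, Anxa2 and Acta2 did not pass the test.

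**Figure D4:**
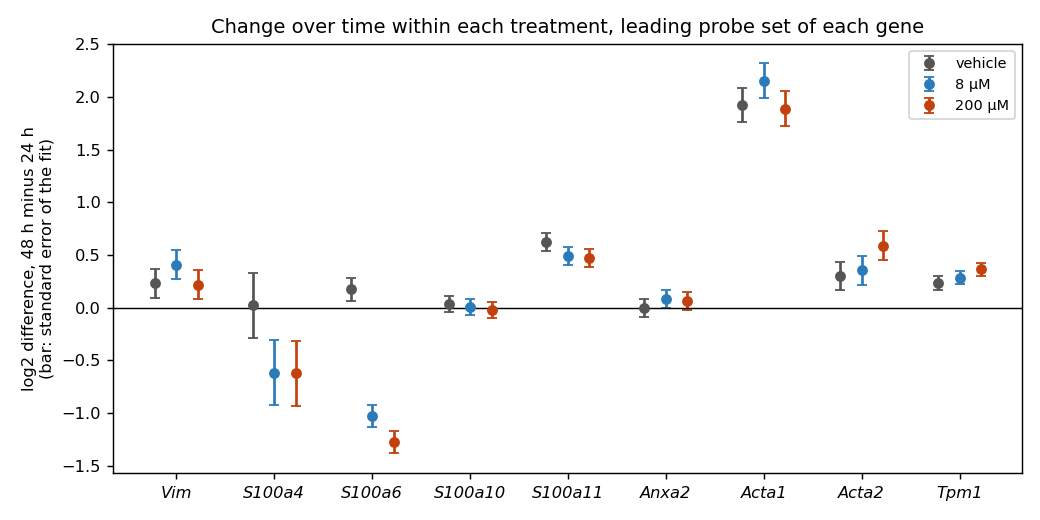
Log2 difference of signal, 48 h minus 24 h (y axis), for the leading probe set of 9 genes (x axis) in vehicle, 8 µM and 200 µM wells; bars are the standard error of the fit. Acta1 is near 2 in all 3 treatments, and S100a6 is below -1 at both doses and 0.17 in vehicle.

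S100 genes lie in a cluster on rat chromosome 2, so the neighbours of S100a6 were read in their annotated order. Before S100a6 stand S100a1, S100a13, S100a14, S100a16, S100a3, S100a4 and S100a5, and S100a11 and S100a10 come after it. S100a5, S100a8 and S100a9 were below the filter. S100a13, a secretory S100 protein, fell with log2 differences of -0.87 ± 0.08 at 200 µM and -0.95 ± 0.08 at 8 µM at 24 h (limma adjusted p = 3.88e-10 and 3.9e-11). At 48 h it fell with log2 differences of -1.30 ± 0.08 and -1.49 ± 0.08 (1.49e-14 and 3.61e-16). S100a16 fell with log2 differences of -0.47 ± 0.06 and -0.39 ± 0.06 at 24 h (7.29e-08 and 2.42e-06) and of -0.88 ± 0.06 and -0.79 ± 0.06 at 48 h (3.65e-14 and 4.11e-13). Both genes, like S100a6, also fell over time at 8 µM and at 200 µM, S100a13 with log2 differences of -0.79 ± 0.08 and -0.69 ± 0.08 (1.09e-08 and 2.32e-07) and S100a16 with -0.38 ± 0.06 at each dose (1.4e-05 and 1.49e-05). S100a3, which stands between S100a16 and S100a4, had positive differences of 0.36 ± 0.23 to 0.55 ± 0.23.

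**Figure D5:**
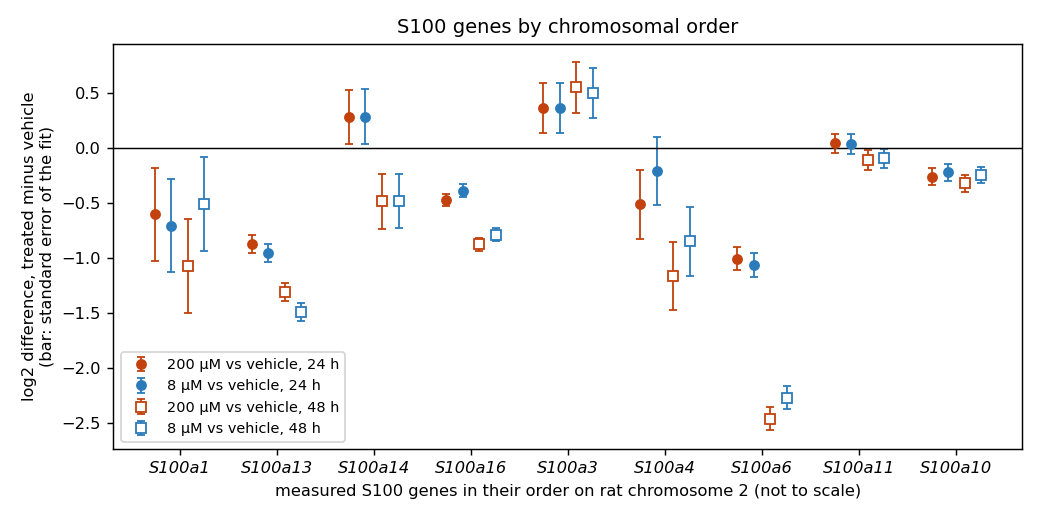
Log2 difference of signal, treated minus vehicle (y axis), for the 9 measured S100 genes of rat chromosome 2 in their annotated order (x axis, not to scale), at 200 µM and 8 µM and at 24 h (filled) and 48 h (open); bars are the standard error of the fit. S100a1, S100a13, S100a16, S100a4, S100a6 and S100a10 lie below 0 in all 4 contrasts, S100a14 and S100a11 lie above 0 at 24 h and below it at 48 h, and S100a3 lies above 0 in all 4.

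The other S100 and annexin genes form a list of 21, of which 14 were measured. At 200 µM 7 fell at 24 h and 8 at 48 h, and at 8 µM 4 and 6, with none higher. Without the array that stands apart 8 and 9 fell at 200 µM and 4 and 6 at 8 µM. In that fit none rose at 200 µM at 24 h, and 1 rose in each other contrast. Over all probe sets 10.1% and 13.8% fell at 200 µM and 10.5% and 15.7% at 8 µM at these times, and 8.70% to 12.8% rose, shares that stand beside the counts of the other lists too. Their median difference was -0.34, -0.15, -0.47 and -0.29 in the order 200 µM and 8 µM at 24 h, then at 48 h, which the other lists follow. Anxa8, an annexin of epithelial cells, differed by dose. It averaged 3646 ± 318 at 200 µM and 6515 ± 266 at 8 µM, against 6768 ± 570 in vehicle at 24 h (SD, n = 5). It fell at 200 µM against 8 µM with log2 differences of -0.84 ± 0.12 at 24 h and -0.78 ± 0.12 at 48 h (limma adjusted p = 4.93e-05 and 7.91e-05). Anxa3 fell at 200 µM with log2 differences of -0.28 ± 0.09 and -0.31 ± 0.09 at 24 h and 48 h (0.0232 and 0.00761), and at 8 µM it had -0.12 ± 0.09 and -0.24 ± 0.09 (0.45 and 0.0433). Anxa11 had -0.16 ± 0.08 and -0.11 ± 0.08 at 200 µM (limma adjusted p = 0.178 and 0.335, and 0.0222 and 0.00235 without the array that stands apart). At 8 µM its differences were 0.02 and 0.06 (0.919 and 0.6).

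Of the other actin cytoskeleton genes, more fell than rose in each treated contrast. Of 42 measured, 23 fell and 1 rose at 200 µM, and 20 fell and 3 rose at 8 µM at 24 h. At 48 h 22 fell and 2 rose at 200 µM, and 19 fell and 2 rose at 8 µM. Without the array that stands apart 26, 23, 27 and 19 fell and 2, 3, 1 and 2 rose, in the same order of contrasts. Their median differences were -0.33, -0.25, -0.39 and -0.29, beside -0.02, -0.03, -0.07 and -0.10 over all probe sets. Myh9, the heavy chain of non-muscle myosin, fell with log2 differences of -0.85 ± 0.07 and -0.49 ± 0.07 at 24 h and of -0.57 ± 0.07 and -0.23 ± 0.07 at 48 h (limma adjusted p = 4.34e-11, 3.4e-06, 2.11e-07 and 0.0147). It also fell at 200 µM against 8 µM with log2 differences of -0.36 ± 0.07 and -0.33 ± 0.07 (0.00313 and 0.00667), as Acta2 and Tpm1 did at 24 h. Myl12b, a myosin light chain, fell with log2 differences of -0.44 ± 0.07, -0.47 ± 0.07, -0.67 ± 0.07 and -0.74 ± 0.07 (all adjusted p at or below 5.1e-06).

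Tmsb4x, thymosin beta 4, which binds free actin, fell with log2 differences of -0.38 ± 0.09, -0.42 ± 0.09, -0.47 ± 0.09 and -0.82 ± 0.09 (limma adjusted p = 0.0025, 0.00103, 0.000192 and 1.18e-08). The cytoplasmic actin Actg1 fell at 200 µM at 24 h by 0.30 ± 0.07 (0.00355) and did not pass in the other 3 treated contrasts, where it had -0.14, -0.11 and 0.03, although the first 2 of these passed without the array that stands apart (0.0458 and 0.00495). Csrp1, a LIM protein of actin filaments, differed by dose. It averaged 3849 ± 438 at 200 µM and 7024 ± 468 at 8 µM, against 4044 ± 251 in vehicle at 24 h. It rose at 8 µM by 0.79 ± 0.07 at 24 h and 0.68 ± 0.07 at 48 h (4.13e-11 and 1.05e-09), and fell at 200 µM against 8 µM, with log2 differences of -0.87 ± 0.07 and -0.69 ± 0.07 (7.87e-10 and 3.13e-08).

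Regulators and target genes of SRF, YAP and TGF-beta were the next list. Of 20 measured, 5 fell and 1 rose at 200 µM, and 6 fell and 1 rose at 8 µM at 24 h, and 8 fell and none rose at each dose at 48 h. Without the array that stands apart the 8 µM count at 24 h was 9. Ccn2, the connective tissue growth factor and a standard target of YAP, had the largest difference from vehicle of any gene in the 5 lists. It averaged 1557 ± 119 at 200 µM and 1000.4 ± 94.7 at 8 µM, against 11935 ± 901 in vehicle at 24 h (SD, n = 5). At 48 h it averaged 956 ± 162 and 959.8 ± 123, against 17635 ± 1795. The log2 differences from vehicle were -2.93 ± 0.10, -3.56 ± 0.10, -4.19 ± 0.10 and -4.18 ± 0.10 (limma adjusted p = 2.02e-21, 9.7e-24, 2.17e-25 and 1.29e-25).

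Ccn1, its relative, fell with log2 differences of -0.76 ± 0.17, -0.92 ± 0.17, -1.44 ± 0.17 and -1.24 ± 0.17 (limma adjusted p = 0.000848, 6.57e-05, 2.15e-08 and 3.5e-07). Egr1, an immediate early gene driven by SRF, fell with log2 differences of -0.59 ± 0.12, -0.40 ± 0.12, -1.08 ± 0.12 and -0.78 ± 0.12 (0.000282, 0.013, 7.79e-09 and 3.56e-06). Tead1, the DNA-binding partner of YAP, fell with log2 differences of -0.58 ± 0.09, -0.49 ± 0.09, -0.69 ± 0.09 and -0.55 ± 0.09 (7.81e-06, 0.000107, 3.49e-07 and 1.53e-05). The TGF-beta receptor Tgfbr1 did not pass, with -0.13, -0.20, -0.09 and -0.15 (all ± 0.09), although both 8 µM values passed without the array that stands apart (0.0379 and 0.014).

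Intermediate filament and junction genes, epithelial ones among them, also fell more often than they rose. Of 23 measured, 14 fell and 3 rose at 200 µM, and 12 fell and 3 rose at 8 µM at 24 h. At 48 h 14 fell and 2 rose at 200 µM, and 12 fell and 2 rose at 8 µM. Without the array that stands apart 14, 13, 16 and 15 fell and 3, 3, 2 and 2 rose, in the same order of contrasts. E-cadherin (Cdh1), the epithelial cadherin, averaged 2679 ± 135 at 200 µM and 3711 ± 391 at 8 µM, against 7376 ± 756 in vehicle at 24 h. It fell with log2 differences of -1.45 ± 0.12, -0.99 ± 0.12, -1.52 ± 0.12 and -1.11 ± 0.12 (limma adjusted p = 9.76e-12, 4.31e-08, 2.35e-12 and 2.51e-09). N-cadherin (Cdh2), the second cadherin of hepatocytes, fell with log2 differences of -1.03 ± 0.08, -1.16 ± 0.08, -0.77 ± 0.08 and -0.94 ± 0.08 (1.63e-11, 7.18e-13, 7.41e-09 and 8.42e-11).

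The tight junction protein F11r fell with log2 differences of -0.63 ± 0.06, -0.60 ± 0.06, -0.84 ± 0.06 and -0.89 ± 0.06 (limma adjusted p = 1.46e-09, 2.71e-09, 1.17e-12 and 2.08e-13). The hepatocyte keratins had small differences. Krt8 fell with log2 differences of -0.35 ± 0.07, -0.25 ± 0.07 and -0.20 ± 0.07 in the first 3 contrasts (0.000408, 0.0106 and 0.0375) and had -0.12 ± 0.07 at 8 µM at 48 h (0.228, and 0.00545 without the array that stands apart). Krt18 fell at 24 h with log2 differences of -0.32 ± 0.08 and -0.24 ± 0.08 (0.00345 and 0.0306) and had -0.13 ± 0.08 at 200 µM at 48 h (0.244, and 0.0042 without that array) and -0.002 at 8 µM (0.988).

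Of 21 matrix and surface genes measured, 4 fell and none rose at 200 µM, and 4 fell and 2 rose at 8 µM at 24 h, and at 48 h 6 fell and 1 rose at 200 µM and 4 fell and none rose at 8 µM. Without the array that stands apart 5, 4, 5 and 4 of these genes fell and 1, 3, 2 and 1 rose, in the same order of contrasts. Their median differences were -0.14, -0.01, -0.19 and -0.03. Fibronectin (Fn1), a major matrix glycoprotein that hepatocytes also secrete, was lower at 8 µM than at 200 µM. It averaged 22517 ± 1156 at 200 µM and 18612.5 ± 606 at 8 µM, against 43742 ± 3171 in vehicle at 24 h. The log2 differences from vehicle were -0.96 ± 0.07, -1.23 ± 0.07, -1.52 ± 0.07 and -2.002 ± 0.07 (limma adjusted p = 1.5e-12, 1.92e-15, 7.11e-18 and 3.08e-21). Fn1 rose at 200 µM against 8 µM by 0.27 ± 0.07 and 0.48 ± 0.07 (0.0342 and 3.12e-05). Caveolin 1 (Cav1) fell with log2 differences of -0.88 ± 0.17, -0.95 ± 0.17, -2.06 ± 0.17 and -1.91 ± 0.17 (0.000156, 5.1e-05, 8.92e-12 and 4.23e-11). Laminin gamma 1 (Lamc1) fell with log2 differences of -0.43 ± 0.14, -0.65 ± 0.14, -0.82 ± 0.14 and -1.02 ± 0.14 (0.0251, 0.000581, 2.12e-05 and 4.48e-07), and galectin 3 (Lgals3) had -0.18 ± 0.08 and -0.19 ± 0.08 at 200 µM (0.107 and 0.0628, and 0.0197 and 0.000451 without the array that stands apart) and -0.12 and 0.01 at 8 µM (0.336 and 0.938).

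The genes most like Vim and S100a6 over the 30 arrays were found by Pearson r, given as a description because the arrays share the groups. Sult6b2 was closest to Vim (r = 0.987), then Cav2 (0.975), B3galnt1 (0.974), Rnf144b (0.971) and Steap4 (0.968). Closest to S100a6 were Apoa5 (0.990), Npy (0.974), S100a16 (0.969), Xbp1 (0.963) and S100a13 (0.958). Apoa5, a regulator of plasma triglyceride, had log2 differences from vehicle of -1.07 and -1.07 at 24 h and -2.31 and -2.11 at 48 h (200 µM before 8 µM), against -1.01, -1.06, -2.46 and -2.27 for S100a6. Steap4 had -2.35, -2.26, -2.71 and -2.85.

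The culture carried hepatocyte markers (14 of 15 past the filter). Alb had log2 differences from vehicle of -0.05, -0.08, -0.08 and 0.06 (200 µM and 8 µM at 24 h, then at 48 h). Other markers fell by more. Tat had -0.76, -1.54, -0.86 and -1.46, and Ahsg had -0.26, -0.29, -0.99 and -1.20, both named after their values were seen. The summed hepatocyte signal at 24 h was 732361 to 812871 at 200 µM and 704449 to 771668 at 8 µM, against 810808 to 955568 in vehicle. At 48 h it was 568195 to 629476 and 565546 to 645411, against 591546 to 884923 in vehicle (779258 to 884923 without the array that stands apart, above every treated well). Of the 14 hepatocyte markers 5 and 6 fell at 24 h (200 µM and 8 µM against vehicle) and 7 and 7 at 48 h, with none higher. The shares over all probe sets were 10.1% and 10.5% lower at 24 h and 13.8% and 15.7% at 48 h, in the same dose order, and 8.70% to 12.8% higher. They stand beside the counts of the other cell types too, some of which are near them. No loss of a cell type is read from these counts. Of 15 stellate cell markers 9 passed the filter, and the defining ones Lrat, Pdgfrb and Pdgfra did not. Their sum was 4521 to 5446 at 200 µM and 4656 to 5031 at 8 µM, against 4781 to 5113.5 in vehicle at 24 h, and 4465 to 5311.5 and 4828 to 5616, against 4676 to 9781 at 48 h (5709 without the array that stands apart). Of the 9, none passed the test against vehicle at 24 h, and 3 fell at 200 µM and 1 at 8 µM at 48 h.

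Of 15 macrophage markers 11 passed the filter, without Adgre1 or Ptprc. Their sum was 12278 to 14347 at 200 µM and 13134 to 14739 at 8 µM, against 15940.5 to 18683 in vehicle at 24 h, and 9319 to 11264 and 10060.3 to 11808, against 14134.5 to 17000.1 at 48 h. Much of that sum was lysozyme (Lyz2), which fell with log2 differences of -0.50, -0.60, -0.81 and -0.99 (limma adjusted p = 0.000255, 1.79e-05, 7.16e-08 and 8.62e-10). Without Lyz2 the sums overlapped vehicle in all 4 treated groups, and at 48 h they were 4309.5 to 5138 at 200 µM and 5689 to 6197 at 8 µM, against 4943 to 8362 in vehicle (6441 without that array). Endothelial sums at 48 h were 2753 to 3579.7 at 200 µM and 4123 to 4921 at 8 µM, against 3705 to 6771 in vehicle (4455 without the array that stands apart). Of the 11 macrophage markers 2 fell at 200 µM and 1 at 8 µM at 24 h, and 4 and 1 at 48 h, where 1 rose at 8 µM. Of the 8 endothelial markers 2 fell at 200 µM and none at 8 µM at 24 h, and 3 and 1 at 48 h. Of 9 biliary markers 2 passed the filter, and 1 of these fell and none rose in each treated contrast. At 200 µM at 24 h it was Epcam, with a log2 difference of -0.34. In the others it was the dim Krt19, with -1.72 at 8 µM at 24 h and -1.89 and -2.55 at 48 h (200 µM before 8 µM). Macrophages, endothelium and stellate cells all express Vim and S100 genes, and their part in the differences was not tested.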

How the data were processed

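RNA of 30 wells was measured on the Affymetrix whole-genome rat array, 1 array per well. The deposited intensity values were made by the authors with MAS5, per the submitters' processing notes, which turns a probe set's probes into a linear signal. The version is not given in the sources used here. The trimmed mean was 1500.45 to 1500.7 on every array, so arrays were already scaled, and no scaling was added. Probe sets were joined to symbols with the platform annotation (2016): 20832 of 31099 had 1 symbol, 436 several and 9831 none.

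Low probe sets were dropped: 21285 exceeded a signal of 281, the 40th percentile over the whole table, on 5 or more arrays. Values were log2(signal + 16). The 30 arrays entered a single linear model with a mean for each of the 6 groups, using limma 3.58.1 under R 4.3.3, and eBayes was run with trend on. Tests were two-sided and adjusted by Benjamini-Hochberg over all kept probe sets in each contrast. The number of arrays limits the precision. The fit was tested on simulated data. Tables were made with Python 3.11.15 and scipy 1.17.1.

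The members, lists, contrasts and alternatives were chosen with earlier results of these data known. The named genes are every member and, per list, the 3 with the largest moderated statistic in a treated contrast and the 2 brightest, a gene being read by its brightest probe set (mean log2). A list's 4 values run 200 µM and 8 µM at 24 h, then at 48 h. Likeness took the 5 highest r. The alternatives changed the pseudocount (to 1 or 64), the scaling (quantile, or centring on the median), the filter (none, or the 60th percentile), the probe sets (1 per gene) and the model (groups compared alone, blocks by run of arrays, eBayes without trend, array weights), and left out each array in turn. Replicate numbers follow accession order.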

Additional observations from a re-analysis of the deposited data

Results flagged for a closer look

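Among 84 groups of 5 wells tested for a well far from the other 4 (Dixon's criterion, which chance meets in about 1 group in 20), 11 were flagged. In 6 of these the well was 48 h vehicle replicate 4, the array that stands apart as a whole. Its signals were 8908.5 for Vim (14173 to 14656 in the other 4 wells), 33186 for S100a10 (43380.3 to 47985), 38764 for S100a11 (56319 to 60405), 37209 for the leading Anxa2 probe set (52481.5 to 58556) and 19933 for the brightest Tpm1 probe set (25556 to 26709). The dim second Anxa2 probe set was the one it raised, to 778 (297.5 to 376).

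The replicate 5 wells at 48 h gave 3 more flags: Vim at 8 µM with 2142 (3572 to 4166), the third brightest Tpm1 probe set at 8 µM with 1921 (2241 to 2357) and the brightest Tpm1 probe set at 200 µM with 16209 (18257 to 18847). The last 2 were S100a11 in 24 h vehicle replicate 3 with 40652 (32605.5 to 34394) and the second brightest Tpm1 probe set in 200 µM replicate 3 at 24 h with 3414 (3003 to 3096).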

How the results depend on the processing

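No result changed sign past the threshold under any alternative. Shares over all probe sets were computed for the main fit alone, so the counts under the alternatives have none beside them. Median centring moved the counts of member probe sets past the threshold most: to 4 (from 8 as reported) for 8 µM against vehicle at 24 h, 3 (10) at 48 h, 1 (2) and 0 (2) for 200 µM against 8 µM at 24 h and 48 h, and 1 (4), 3 (6) and 3 (6) for time in vehicle, 8 µM and 200 µM. Fitting the groups compared alone left 5 for 8 µM against vehicle at 48 h. For 200 µM against 8 µM at 48 h the count was 1 with a pseudocount of 1, with no filter and with 1 probe set per gene, and 4 with array weights. Quantile normalization moved dose counts of lists: S100 and annexin genes 2 at 48 h (1 as reported), SRF, YAP and TGF-beta genes 2 at 24 h (1), filaments and junctions 5 (2) at 24 h and 2 (1) at 48 h, matrix genes 2 (1) at 48 h. Leaving out each array in turn gave member counts of 9 to 10 and 7 to 8 (200 µM and 8 µM against vehicle at 24 h), 11 to 13 and 8 to 10 (48 h), 2 to 3 and 1 to 4 (dose at 24 h and 48 h), and 3 to 4, 5 to 7 and 6 to 7 (time). It gave dose counts of 1 to 2 and 1 to 3 for S100 and annexin genes, 4 to 7 and 5 to 10 for actin genes, 1 to 2 for SRF, YAP and TGF-beta genes at 24 h, 0 to 4 and 1 to 4 for filaments and junctions, and 0 to 1 and 1 to 2 for matrix genes. List counts against vehicle ran 6 to 8, 3 to 5, 7 to 10 and 5 to 7 (S100 and annexin), 23 to 28, 22 to 26, 22 to 28 and 19 to 22 (actin), 6 to 7, 6 to 10, 7 to 8 and 7 to 8 (SRF, YAP and TGF-beta), 16 to 17, 13 to 16, 14 to 18 and 14 to 17 (filaments and junctions), and 3 to 6, 5 to 7, 5 to 9 and 3 to 5 (matrix). The difference in the 3′ to 5′ ratio ran 0.377 to 0.521, 0.163 to 0.316, 0.404 to 0.615 and 0.507 to 0.778. Blocking by run of 6 arrays moved no member count by over 1.5 times. These runs were inferred from the array numbers, and the sample titles name no batch. Deviations of same-numbered wells over all kept probe sets had a median correlation of 0.0131 (-0.115 to 0.0937, 75 pairs). Such a median cannot show that no single probe set follows the runs. The 5′ β-actin control in 24 h vehicle, for one, had 17316, 17944, 18563, 19944 and 21341 in replicate order. The causes were not tested.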
